A study of Mus musculus with 3 samples.

Results

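The Notch genes examined here are 10 rows of the deposited expression table, chosen by name out of 56833 genes: the receptors Notch1, Notch2 and Notch3, the ligands Jag1, Jag2 and Dll1, the DNA-binding factor Rbpj, and the target genes Hes1, Hey1 and Heyl. All 10 were present in the table. They were measured by bulk RNA sequencing of cells from mouse ankle synovium, the tissue that lines the joint, kept for 24 h on collagen-coated plates whose stiffness was 0.2 kPa (called soft), 8 kPa (intermediate) or 64 kPa (stiff). All 3 cultures had the genotype Efhd1CreER; Ai9, in which a Cre recombinase expressed from Efhd1 switches on a tdTomato reporter, and the cells were sorted for tdTomato before culture. Such a label stays on in descendants of a marked cell, whatever they later express. The number of animals behind each culture is not given in the sources used here. Each stiffness level had 1 library, so the differences below are without a replicate check, no p-value is given, and a difference between plates cannot be told apart from a difference between cultures.

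Notch is a receptor system that works between touching cells. A ligand of the Jagged or Delta-like family on one cell binds the receptor on its neighbour, the receptor is cut by ADAM10 and then by gamma-secretase, and its freed intracellular domain joins RBPJ and Mastermind-like coactivators on DNA to switch on Hes and Hey genes, which encode transcriptional repressors. In synovium, NOTCH3 is known for its part in the positional identity of sublining fibroblasts around blood vessels.

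The libraries held 25487064 (soft), 28081600 (intermediate) and 26474862 (stiff) reads. The labels call the sorted cells telocytes. Efhd1 itself was covered by 10, 5 and 3 reads in the soft, intermediate and stiff library, Kit by 41 to 44 reads and Cd34 by 229 to 310 reads, while Pdgfra, a marker shared with fibroblasts, had 4991 to 6681. All 12 macrophage markers examined were higher in the stiff than in the soft library, with summed levels of 29506, 36317 and 63362 normalized counts from soft to stiff, and none of them was at or near 0. The 8 fibroblast markers summed to 245110, 309785 and 377624 normalized counts, most of it from Col1a1, Col1a2 and Fn1. Between stiff and soft 5 of the 8 were higher, while Dcn was at -0.44, Lum at -0.36 and Pdgfra at -0.20 on the log2 scale. Of 10 endothelial markers, Cldn5 had 0 reads in every library, Tie1 at most 2, Cdh5 at most 5 and Pecam1 at most 13, and the summed levels were 182, 229 and 202 normalized counts, most of it from Egfl7. Kdr had 21, 27 and 45 reads from soft to stiff (stiff to soft log2 ratio 1.07, counting interval 0.32 to 1.92). Tek had 13, 22 and 21, Vwf 5, 13 and 14, Pecam1 12, 13 and 4 and Cdh5 5, 3 and 0, each with a stiff to soft interval that includes 0. Between stiff and soft 4 of the 10 markers were higher. Of 8 mural cell markers, which include Notch3, Higd1b had 0 reads, Kcnj8 at most 4 and Abcc9 13, 8 and 2 from soft to stiff (stiff to soft ratio -2.23, interval -5.89 to -0.56), and the sums of 2432, 3365 and 3221 normalized counts came mostly from Cspg4, at 0.53 (0.44 to 0.63) between stiff and soft. Mcam had 87, 122 and 159 reads, a ratio of 0.86 (0.48 to 1.26), while the intervals of Rgs5, Des and Notch3 included 0. With the trend with length and GC content described below subtracted, Cspg4 turned to -0.27, while Mcam was at 0.76 and Abcc9 at -2.35. In bulk RNA, fewer cells of a type and less RNA per cell cannot be told apart, and the part of macrophages, endothelial or mural cells in the Notch values was not tested.

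Notch1, Notch2 and Jag1 were higher in the stiff than in the soft library, by 0.64, 0.93 and 0.72 on the log2 scale. Notch3 and the targets Hes1 and Hey1 lay at -0.05, -0.10 and -0.10, and Rbpj at 0.05. Long, GC-rich transcripts as a whole were higher in the stiff library, and with that trend subtracted Notch1 was at -0.16, Notch2 at 0.22, Notch3 at -0.87 and Jag1 at 0.57. Jag2, Dll1 and Heyl had 10 reads or fewer in each library, which leaves no ratio that the counting error would resolve. A ratio is given as the log2 of the deposited normalized counts (reads scaled to a common library size) after adding 1, with the exact 95% Clopper-Pearson interval of the reads, which covers counting error only.

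The promoters of the 3 genes that were higher on the stiff plate, and those of Notch3 and Rbpj for contrast, are shown as the 250 bases before the start site in RefSeq on GRCm38.p6, 5′ to 3′ on the strand of the gene. Capitals mark matches to any of the motifs searched on both strands: TGGGAA and the longer GTGGGAA that contains it (RBPJ), CACGCG and CACGTG (sites of HES and HEY proteins), and GGAATG (TEAD factors).
Notch1, chr2:26503823-26504072, minus strand: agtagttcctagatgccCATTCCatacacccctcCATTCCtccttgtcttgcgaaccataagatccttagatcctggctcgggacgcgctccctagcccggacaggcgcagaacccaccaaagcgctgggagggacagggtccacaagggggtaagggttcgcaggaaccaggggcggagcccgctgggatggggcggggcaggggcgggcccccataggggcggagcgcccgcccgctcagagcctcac
Notch2, chr3:98013288-98013537, plus strand: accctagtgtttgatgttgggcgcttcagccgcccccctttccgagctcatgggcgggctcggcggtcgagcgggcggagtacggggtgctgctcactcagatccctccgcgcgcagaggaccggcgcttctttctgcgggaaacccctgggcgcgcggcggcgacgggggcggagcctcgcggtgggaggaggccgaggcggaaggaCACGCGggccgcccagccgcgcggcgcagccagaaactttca
Jag1, chr2:137116521-137116770, minus strand: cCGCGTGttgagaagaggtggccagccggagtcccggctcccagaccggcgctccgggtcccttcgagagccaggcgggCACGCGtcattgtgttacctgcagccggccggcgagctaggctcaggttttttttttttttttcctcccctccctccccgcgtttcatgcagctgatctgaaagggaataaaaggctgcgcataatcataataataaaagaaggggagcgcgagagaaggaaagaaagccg
Notch3, chr17:32166891-32167140, minus strand: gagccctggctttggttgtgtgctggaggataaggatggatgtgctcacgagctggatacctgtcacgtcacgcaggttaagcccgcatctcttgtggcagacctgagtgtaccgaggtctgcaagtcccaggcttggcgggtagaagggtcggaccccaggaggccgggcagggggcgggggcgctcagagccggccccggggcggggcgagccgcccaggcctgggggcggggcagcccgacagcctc
Rbpj, chr5:53590096-53590345, plus strand: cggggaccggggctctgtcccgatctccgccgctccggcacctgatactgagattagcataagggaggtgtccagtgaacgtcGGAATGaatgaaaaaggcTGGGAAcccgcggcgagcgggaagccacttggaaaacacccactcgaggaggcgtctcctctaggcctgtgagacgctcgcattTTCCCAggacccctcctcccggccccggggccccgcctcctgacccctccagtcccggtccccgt

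Only the Rbpj window of these 5 held the RBPJ core, in 2 places. Notch1 held GGAATG in 2 places, both read as CATTCC on the strand shown, Jag1 held CACGCG in 2 places, once as CGCGTG, Notch2 held it once, Rbpj held GGAATG once, and the Notch3 window held none of the motifs. The windows of Notch1, Notch2 and Jag1, higher before the length and GC trend was subtracted, shared no single motif of the search. Among 32851 such windows of all genes, TGGGAA was in 21.6%, GTGGGAA in 5.42%, CACGCG in 7.62%, CACGTG in 6.02% and GGAATG in 12.6%. A match is a run of letters and not a shown binding site. Of the 10 genes 7 had a window in the RefSeq table, and Hes1, Hey1 and Heyl had none there. Jag2 had 1 window and no match. Dll1 had 2 windows, of which 1 held CACGCG once, and a second Rbpj window, which overlaps the first, held TGGGAA once, at a place already counted in the first.

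**Figure D1:**
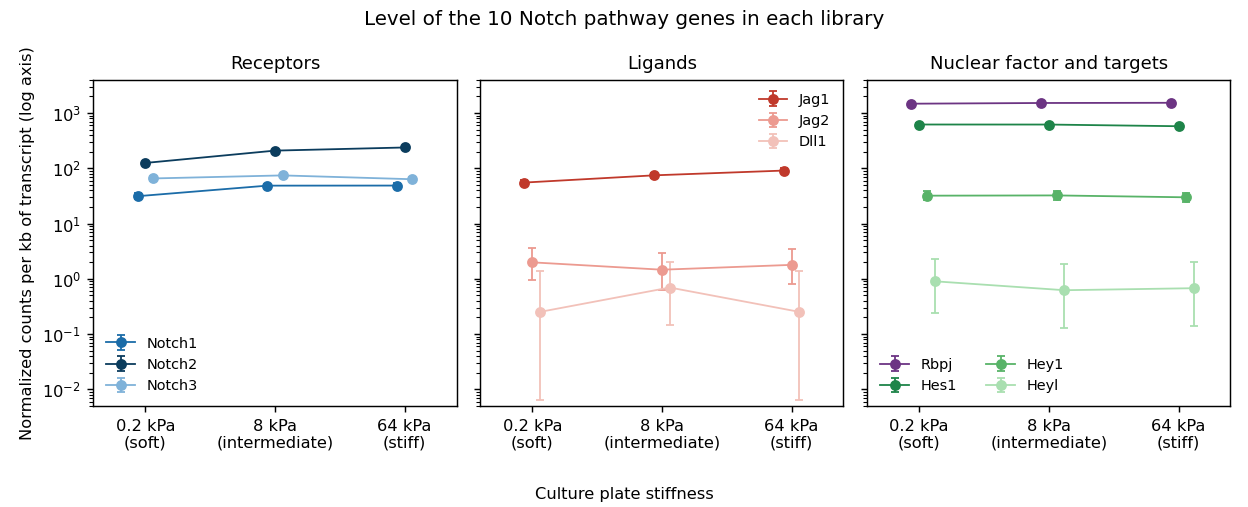
Normalized counts per kb of the canonical transcript (log axis) of the 10 genes at each plate stiffness, 1 library per point, with exact 95% Poisson intervals of the reads as bars. Notch1, Notch2 and Jag1 are lowest on the soft plate, Rbpj and Hes1 are the most abundant at every stiffness, and Jag2, Dll1 and Heyl lie near or under 2 normalized counts per kb.

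Notch2 was the main receptor transcript. As measured, it had the widest range of the 7 genes that averaged 50 or more normalized counts. It encodes a receptor of broad expression and occupies 97920800 to 98057677 of chromosome 3 (GRCm39, the build of every gene position here, plus strand), with 34 exons in its canonical transcript. It had 1317 (soft), 2202 (intermediate) and 2509 (stiff) normalized counts. The soft library was the low one, and the other two lay close together. Stiff to soft, the log2 ratio was 0.93, with an interval from 0.83 to 1.03. Of this, the first step from soft to intermediate gave 0.74 (0.64 to 0.84) and the second from intermediate to stiff 0.19 (0.11 to 0.27). Once the trend with length and GC was removed, stiff to soft was 0.22, the first step 0.30 and the second step -0.08. The stiff to soft ratio largest in size among the 7 was then that of Notch3, at -0.87.

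Notch1, a receptor best known from endothelial and blood cells, occupies 26347915 to 26406675 of chromosome 2 (minus strand) and has 34 exons. Its level was 296 (soft), 460.0 (intermediate) and 461 (stiff) normalized counts. The soft library again stood below the other two, which were alike. The log2 ratios were 0.64 for stiff to soft (0.42 to 0.86), 0.63 for intermediate to soft (0.42 to 0.85) and 0.00 for stiff to intermediate (-0.18 to 0.19). As measured, any difference between the 8 and 64 kPa libraries was below what the counting error resolves. Once the trend with length and GC was removed, the ratios were -0.16, 0.13 and -0.31 in the same order.

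Notch3, the receptor typical of mural cells and of perivascular sublining fibroblasts, occupies 32339794 to 32385893 of chromosome 17 (minus strand) and has 33 exons. It had 529 (soft), 600.5 (intermediate) and 512 (stiff) normalized counts. The intermediate library was the highest of the 3, unlike for Notch2, and the soft and stiff libraries did not differ beyond counting error. The ratio of stiff to soft was -0.05 (-0.23 to 0.13), that of intermediate to soft 0.18 (0.01 to 0.35) and that of stiff to intermediate -0.23 (-0.40 to -0.06). Once the trend with length and GC was removed, intermediate to soft turned to -0.34 and stiff to soft was -0.87, so that the soft library was the highest. Notch4, the remaining mammalian receptor and a largely endothelial one, was not in the set of 10. It had 78, 115 and 93 reads from soft to stiff, and its interval of stiff to soft ran from -0.20 to 0.71 around 0.25, a ratio that was -0.50 without the trend with length and GC.

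The make-up of the receptor reads therefore differed between the plates. Of the reads on the 4 receptors, Notch2 took 59.3% in the soft library (exact 95% binomial interval 57.2 to 61.3), 65.3% in the intermediate (63.7 to 66.9) and 70.1% in the stiff library (68.6 to 71.7). The 3 intervals do not overlap. Notch3 took 23.8% (22.0 to 25.7), 17.8% (16.6 to 19.1) and 14.3% (13.2 to 15.5). These are parts of 1 total, so a higher share of Notch2 lowers the others, and the level of Notch3 itself did not differ beyond counting error between soft and stiff before the trend was removed. Notch1 took 13.3%, 13.6% and 12.9%, within overlapping intervals. Weighted by transcript length, Notch2 made up 53.4%, 60.0% and 65.3% of the receptor transcripts and Notch3 28.0%, 21.4% and 17.4%. These shares depend on no scaling between libraries.

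**Figure D2:**
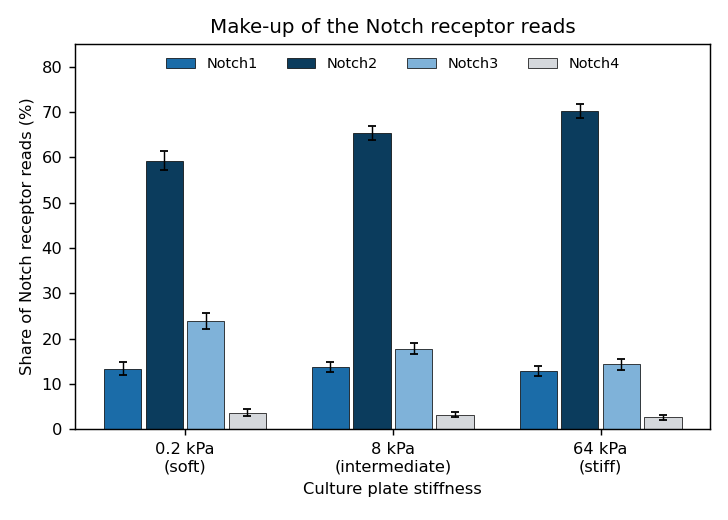
Share of the reads on Notch1, Notch2, Notch3 and Notch4 taken by each receptor, in percent, at each plate stiffness, with exact 95% binomial intervals, 1 library per stiffness. Notch2 goes from 59.3% to 70.1% between 0.2 and 64 kPa and Notch3 from 23.8% to 14.3%.

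Jag1 took nearly all reads on the 3 ligands of the set. It encodes the Jagged ligand that serves in vessel wall and skeletal tissue, and occupies 136923373 to 136958693 of chromosome 2 (minus strand), with 26 exons. Jag1 had 317 (soft), 428 (intermediate) and 522 (stiff) normalized counts. It was higher at each step, with log2 ratios of 0.43 from soft to intermediate (0.22 to 0.65) and 0.29 from intermediate to stiff (0.10 to 0.47), and 0.72 over both (0.51 to 0.93). Among the 7 genes with enough reads it was the only one with at least 0.25 in each step in the same direction. Of 11873 genes 5.73% were higher and 0.707% lower in this way. The second step of Jag1 came under 0.25 when scaled to library totals (0.249) and when the trend with length and GC content described below was removed (0.23). In the latter case Notch3 was the only one of the 7 past 0.25 one way in each step, at -0.34 and -0.56. The 5.73% and 0.707% hold for the ratios as measured, and the share of all genes with the trend removed was not computed.

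Jag2, the Jagged ligand best known from epithelium and lymphoid tissue, was covered by 10, 8 and 9 reads from soft to stiff. Dll1, a Delta-like ligand, had 1, 3 and 1, and its exons overlap those of Fam120b on the opposite strand, a gene with 1138 to 1197 normalized counts, so even these reads are uncertain where strand was not used in counting. Of the reads on Jag1, Jag2 and Dll1, Jag1 took 96.6% (soft), 97.6% (intermediate) and 98.1% (stiff). Dll4, the ligand of sprouting endothelium, had 0 reads in every library, which allows up to 3 reads in each, and Dll3 had at most 1. Jag2 occupies 112871421 to 112893437 of chromosome 12 (minus strand), and Dll1 15587276 to 15597134 of chromosome 17 (minus strand).

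Rbpj, the factor through which the cleaved receptors reach DNA, was the most abundant of the 10 genes. It occupies 53623494 to 53814704 of chromosome 5 (plus strand), with 11 exons. Its levels were 8017, 8256 and 8325 normalized counts from soft to stiff. The 3 libraries were close together, with a stiff to soft log2 ratio of 0.05 (0.01 to 0.10). Under scaling to library totals that ratio was -0.00090. The pseudogene Rbpj-ps3 matches the Rbpj transcript at 99.7% identity over 1441 nt and had 24.5 to 30.8 normalized counts. How many reads the pair shares is uncertain, since the handling of reads with several matches is not given in the sources used here.

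Hes1, a target that represses its own gene and is induced by several pathways besides Notch, occupies 29882134 to 29886643 of chromosome 16 (plus strand), with 4 exons. It had 946 (soft), 945 (intermediate) and 881 (stiff) normalized counts. The soft and intermediate libraries were level and the stiff one slightly lower, within the counting error. The stiff to soft ratio was -0.10, with an interval from -0.24 to 0.03. That interval lies below the stiff to soft ratios of Notch1, Notch2 and Jag1 as measured, but once the trend with length and GC was removed Notch1 was at -0.16, against 0.01 for Hes1.

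Hey1, a target that acts in vessels and the heart, occupies 8726956 to 8732385 of chromosome 3 (minus strand), with 5 exons. Its levels were 124, 125 and 116 normalized counts from soft to stiff. The 3 values were close together, and the interval of the stiff to soft ratio ran from -0.48 to 0.28 around -0.10. Heyl, a target found mainly in vascular smooth muscle, at 123127349 to 123143682 of chromosome 4 (plus strand), had 4, 3 and 3 reads. Hes1 took 88.1%, 88.0% and 88.1% of the reads on the 3 target genes from soft to stiff, so the make-up of the target reads was level where that of the receptor reads was not.

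Per kb of transcript, the order in the soft library was Rbpj at 1474, Hes1 at 619, Notch2 at 125, Notch3 at 65.4, Jag1 at 55.2, Hey1 at 31.9 and Notch1 at 31.2 normalized counts per kb, with Jag2, Heyl and Dll1 under 2. The Poisson intervals of Notch3 and Jag1 overlapped there, as did those of Hey1 and Notch1. In the intermediate library Jag1 (74.5) and Notch3 (74.3) were not separable. In the stiff library Jag1 stood at 90.9 (83.1 to 99.1) and Notch3 at 63.3 (57.9 to 69.1), so that Jag1 was above Notch3, while Notch1 at 48.6 (44.2 to 53.3) was above Hey1 at 29.8 (24.6 to 35.9).

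A ratio was counted as apart when it reached 0.5 in size on the log2 scale and the gene had a mean of at least 50 normalized counts over the libraries, which 7 of the 10 genes had. Between stiff and soft 3 of the 7 were higher (Notch1, Notch2 and Jag1) and 0 lower, where 11.8% of all 11873 genes were higher and 3.77% lower. Between intermediate and soft 2 were higher (Notch1 and Notch2) and 0 lower, against 3.94% and 0.657% of all genes. Between stiff and intermediate 0 were higher and 0 lower, against 5.42% and 3.42%. The median log2 ratio of the 7 was 0.05, 0.18 and 0.00 in these comparisons, and that of all 11873 genes was 0.00, 0.01 and 0.01. No member reached a log2 ratio of 1 in any comparison. Of all genes 3.22% did so upward and 0.387% downward between stiff and soft, 0.16% and 0.00842% between intermediate and soft, and 0.825% and 0.421% between stiff and intermediate.

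The ratios moved with transcript length and GC content over all genes, and this touches the receptors most. Over 11630 genes, the stiff to soft ratio had a median of -0.15 for 566 transcripts under 1 kb and 0.21 for 767 over 8 kb. Notch1 (9488 nt, 57.1% GC), Notch2 (10554 nt, 53.7% GC) and Notch3 (8083 nt, 59.7% GC) are long, GC-rich transcripts, Jag1 has 5744 nt at 49.2% GC and Hes1 1528 nt at 50.3% GC. A local fit over the 300 nearest genes in length and GC content put the stiff to soft ratio at 0.80 for a transcript like Notch1, 0.71 for one like Notch2, 0.83 for one like Notch3 and 0.15 for one like Jag1. With these values subtracted, which gives the figures named at the outset, Jag1 was then the only member of the 7 higher by 0.5 and Notch3 the only one lower, against 7.63% and 4.21% of all genes. Hes1, Hey1 and Rbpj stood at 0.01, -0.13 and 0.07.

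For the first step the subtracted values were 0.13 for Notch1, 0.30 for Notch2, -0.34 for Notch3 and 0.35 for Jag1, and 0 of the 7 reached 0.5, against 2.06% higher and 0.774% lower of all genes. For the second step they were -0.31, -0.08, -0.56 and 0.23, so Notch3 was lower, against 3.42% of all genes, and 0 were higher, against 4.72%. What sets the trend with length and GC content was not tested. The order of the receptors, with Notch2 highest and Notch3 lowest in the stiff to soft ratio, was the same with and without the subtraction.

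**Figure D3:**
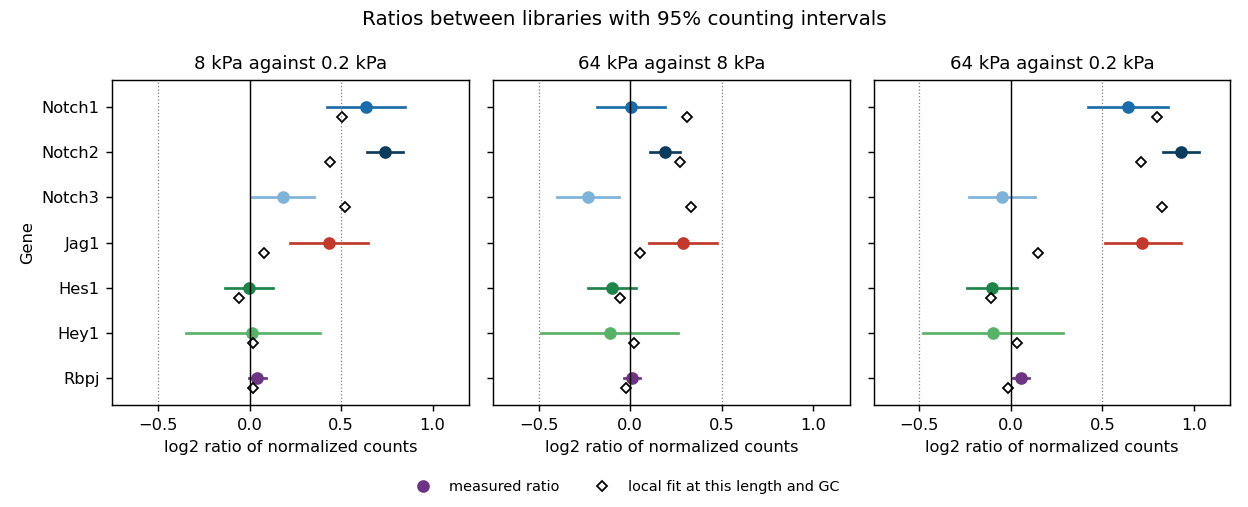
log2 ratios of the 7 genes that averaged at least 50 normalized counts in 3 pairs of libraries, with 95% counting intervals as lines and, as open diamonds, the value fitted for a transcript of the same length and GC content. Dotted lines stand at 0.5 in either direction. Jag1 lies right of its diamond in all 3 panels and Notch3 left of it.

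**Figure D4:**
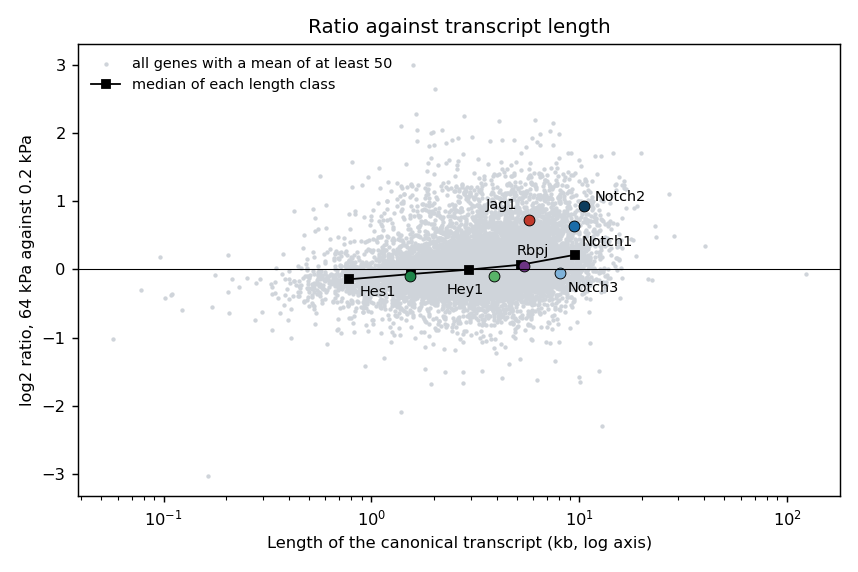
log2 ratio of the stiff to the soft library against the length of the canonical transcript (kb, log axis) for 11630 genes (grey), with the medians of 5 length classes (black squares, from -0.15 to 0.21) and the 7 Notch genes. Notch2 and Notch1 lie above the line at the long end, Notch3 below it, and Jag1 above it at middle length. The line takes length only. The fit on length and GC puts a transcript like Notch1 at 0.80, above its measured 0.64.

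Other genes of the pathway were taken as 8 lists by role, with 62 genes in the table, of which 52 had a mean of at least 10. Between stiff and soft 7 of the 52 were higher by 0.5 and 0 lower, where 13.4% of the 14291 genes with such a mean were higher and 6.89% lower. The 7 are 13.5% of the list, close to the background for higher genes. For each list by role below, the background between stiff and soft is the same 13.4% higher and 6.89% lower. The median of the 52 was 0.11, against 0.00 over the 14291, and -0.02 with the length and GC trend subtracted. After that subtraction 3 were higher (Maml2, Neurl3 and Tle4) and 4 lower (Neurl1a, Mib2, Maml3 and Notch4), where 10% of 13878 genes were higher and 6.79% lower. Between intermediate and soft 3 were higher and 0 lower (all genes 6.05% and 3.51%), and between stiff and intermediate 2 were higher and 0 lower (7.9% and 6.14%).

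The widest ratio of the 52 was that of a corepressor. Spen encodes a protein that silences genes bound by RBPJ when no receptor fragment is present. It stood at 106, 189 and 279 normalized counts from soft to stiff, higher at each step, with a stiff to soft ratio of 1.39 (1.07 to 1.74). It is a long transcript, and with the trend subtracted the ratio was 0.49. Tle4, of the Groucho family that HES proteins recruit, was at 0.55, and at 0.51 with the trend subtracted. Of 11 corepressors 2 were higher and 0 lower, against 13.4% and 6.89% of the 14291 genes. Ncor1, a nuclear receptor corepressor that also binds RBPJ complexes, was at 0.17, and at -0.16 with the trend subtracted.

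Of 7 coactivators 2 were higher and 0 lower between stiff and soft, against 13.4% and 6.89% of the 14291 genes. Maml2, a Mastermind-like protein that holds the cleaved receptor on RBPJ, had 111, 165 and 205 normalized counts from soft to stiff and a ratio of 0.88 (0.54 to 1.24). Ep300, a histone acetyltransferase that many pathways use, was at 0.94 (0.76 to 1.12). The ratios were 0.77 for Maml2 and 0.38 for Ep300 with the trend subtracted. Maml1 was at 0.44 and Maml3 at 0.02, or 0.12 and -0.55 after the subtraction. With the trend subtracted 1 of the 7 was higher by 0.5 and 1 lower, against 10% and 6.79% of 13878 genes.

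Of the proteases and subunits that cut receptors, Adam10, which makes the first ligand-driven cut, had 5258, 5357 and 5280 normalized counts from soft to stiff, a ratio of 0.01. Of the gamma-secretase subunits examined Psen2 was at 0.32 (0.17 to 0.48), Ncstn at 0.16, Aph1a at -0.02 and Psenen at -0.23 (-0.35 to -0.11). Furin, which processes receptors on their way to the membrane, was the only 1 of 8 that was higher by 0.5, at 0.61 (0.54 to 0.67), and it stood at 0.11 with the trend subtracted. Ncstn was the highest per length of these subunits in the stiff library, at 1858 normalized counts per kb.

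Of the 7 glycosylation enzymes that averaged at least 10, 0 were higher and 0 lower by 0.5. Lfng, the Fringe enzyme that alters which ligands a receptor answers to, was nearest, at 0.497 (0.27 to 0.73), with 274, 292 and 387 normalized counts. Mfng had 4 to 7 reads. Of 5 ligand ubiquitin ligases, Neurl3 was higher at 0.76 (0.43 to 1.11), while Mib1, the ligase needed for ligand activity in most tissues, was at 0.03 with 2022 to 2306 reads. Without the trend Neurl3 stood at 0.73, while Mib2 went from -0.17 to -0.56 and Neurl1a from -0.15 to -0.62. Of 9 turnover genes with such a mean, Dtx4 was higher at 0.52 (0.24 with the trend subtracted) and Nedd4, the most abundant, was at -0.08.

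Further target genes gave little signal. Hes2, Hes3 and Hes5 had 0 reads in every library, and Hes7 at most 1. Nrarp, a feedback inhibitor that Notch switches on, was covered by 3, 9 and 2 reads from soft to stiff, and its interval for intermediate to soft ran from -0.54 to 3.99. Hey2 had 4, 2 and 8 reads. Hes6, which opposes Hes1, was the only one with a mean of at least 10, at 0.17 between stiff and soft (-0.09 to 0.43). At these depths a difference in Nrarp, Hey2 or Heyl of several-fold would not have been detectable.

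**Figure D5:**
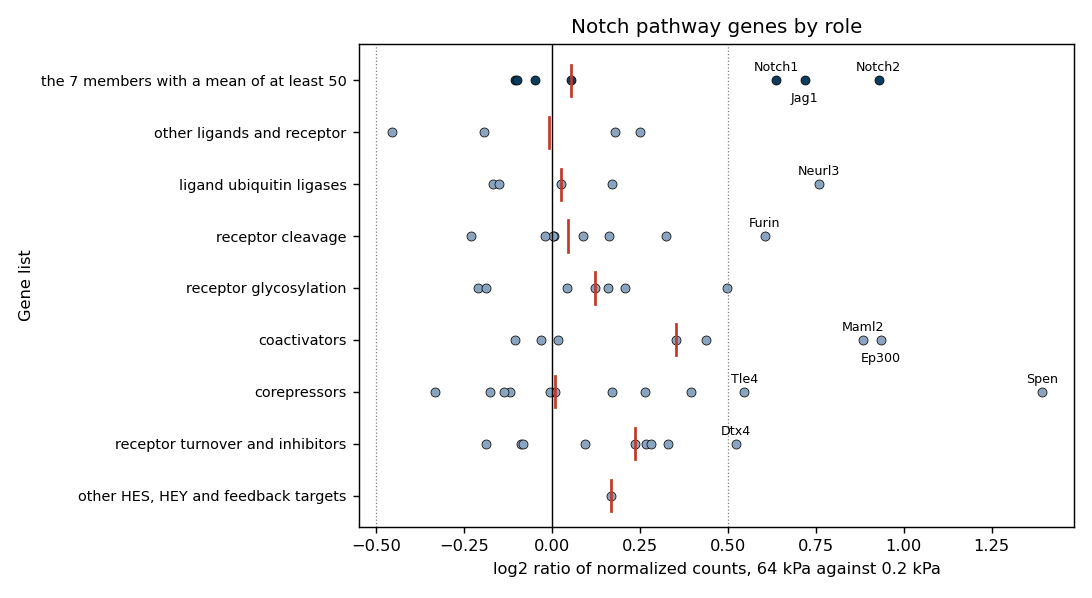
log2 ratio of the stiff to the soft library for the 7 Notch genes and for 52 further pathway genes in 8 lists by role (points), with the median of each list as a red line and dotted lines at 0.5 in either direction. Genes past 0.5 are named; Spen at 1.39 lies farthest right, and no gene lies left of the lower line.

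The genes whose 2 log2 steps were nearest to those of Notch2 by Euclidean distance, among 10603 named genes averaging at least 100 normalized counts, were Peak1, Dennd4b and Fyco1, at distances of 0.0070, 0.026 and 0.030. Their steps were 0.73 and 0.19 for Peak1, 0.73 and 0.16 for Dennd4b, and 0.71 and 0.19 for Fyco1. Nearest to Jag1 were Mdc1, Clasp1 and Bcl9, at 0.0056, 0.015 and 0.015. These likenesses rest on 3 libraries. All 6 transcripts are long, from 6017 nt for Dennd4b to 11144 nt for Peak1.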

How the data were processed

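RNA was sequenced from 3 cultures, 1 library each, as stranded poly(A) libraries per the labels' protocols. The submitters' processing notes name bcl2fastq 2.20.0, STAR 2.7.9a, featureCounts, Subread 2.0.1, DESeq2 1.34.0 and the build GRCm39. The annotation, the handling of strand and of reads with several matches are not given in the sources used here. The 3 deposited files hold the same table. Its signal values are counts that the authors divided by 1 size factor per library, per the file names. In each column 100% of positive values were whole multiples of the smallest one within 0.01, so whole reads were recovered, each worth 1.03, 0.943 and 1.03 normalized counts from soft to stiff. A count of 0 allows 3 reads, which is 3.08, 2.83 and 3.08 normalized counts. Amplified reads are not independent molecules, so intervals and floors cover counting error only.

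Log2 ratios used a pseudocount of 1, which understates the change of low genes, and a mean of at least 50 (10 for pathway lists). Lengths, GC contents and positions are those of GENCODE M39 canonical transcripts on GRCm39, matched by symbol. Promoter windows are RefSeq's on GRCm38.p6. Similar transcripts were searched with blastn 2.17.0 at 90% identity over 100 nt. The length and GC trend was a robust local linear fit.

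The members, lists, thresholds and alternatives were chosen with earlier results of these data known. Some genes of the pathway lists are not reported here and are left out of the list counts. Named were the 10 genes, listed pathway genes past 0.5 with a mean of at least 50 or highest or lowest in their list, the 3 genes nearest in pattern to the 2 members with a mean of at least 50 that had the widest range, and Efhd1; other listed genes are named for their role. In simulated libraries for stiff against soft, over 11873 genes with 200 changed by 1 on the log2 scale, 99.5% passed 0.5, as did 51 unchanged genes. The simulated reads held counting error only, with no difference between cultures and no trend with length and GC. The 51 is therefore not an error rate of the threshold in the real libraries. Software was Python 3.11.15 with scipy 1.17.1, numpy 2.4.6, matplotlib 3.10.9 and pandas 2.3.3, and, for TMM factors only, edgeR 4.0.16. The lymphoid, keratinocyte and Schwann cell marker lists summed to at most 1.03, 139 and 407 normalized counts in a library, and the telocyte list, mostly Vim, to 107942 to 125151.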

Additional observations from a re-analysis of the deposited data

How the results depend on the processing

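Leaving out a replicate and a test of reads between groups were not run, since each level has 1 library. No paired analysis was possible because each level has 1 library and the labels give no replicate numbers. Of 21 ratios of the 7 members, 11 stayed inside their counting intervals under 7 alternatives (2 pseudocounts, 4 scalings and the length and GC trend) and 10 left them under at least 1. With the trend subtracted the stiff to soft ratio of Notch1 changed sign to -0.16, as did Notch3 intermediate to soft (0.18 to -0.34) and Notch2 stiff to intermediate (0.19 to -0.08), whose counting intervals lay above 0; 4 further ratios of the 7 members, whose intervals included 0, changed sign too. The stiff to soft median of the members, 0.054, was -0.00090 with library totals, 0.0058 with the upper quartile and 0.0056 with the trend subtracted; the first 2 scalings lower the stiff to soft ratios of genes that averaged at least 50 by a median of 0.055 and 0.049. The count of members at least 0.5 apart stayed at 3, 2 and 0 (stiff to soft, intermediate to soft and stiff to intermediate) under both pseudocounts and all 4 scalings. With the trend subtracted it was 2, 0 and 1. At a threshold of 1 it was 0 in all 3 comparisons, at 0.25 it was 3, 3 and 1 with Jag1 added in the last 2, and without a filter it was 3, 3 and 1 with Dll1 added there, a gene with 1, 3 and 1 reads from soft to stiff. The count of members moving one way over both steps was 1 (Jag1), and 0 with library totals or with steps of at least 0.5. With the trend subtracted it was 1 again, but Notch3 going lower in place of Jag1. Shares of all genes were not computed at a threshold of 0.25, without a filter, or over both steps under the alternatives. Apart from the looser and stricter thresholds and filters, which change the counts by construction, the cause was not tested. Depth limits any statement on Jag2, Dll1, Heyl, Nrarp and Hey2.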

Other observations

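Some secreted proteins of connective tissue bind Notch receptors or their ligands, and 5 of them were looked up after the other values had been seen. Thbs2, a matricellular protein that can bind Notch3 and Jag1, had 16141 (soft), 16782 (intermediate) and 10534 (stiff) normalized counts, with a stiff to soft log2 ratio of -0.62 and a counting interval from -0.65 to -0.58. Ccn3, a matricellular protein that can bind Notch1, was lower at each step, with 822, 689 and 514 normalized counts and a ratio of -0.68 (-0.84 to -0.52). After subtraction of the length and GC trend they were at -0.76 (Thbs2) and -0.61 (Ccn3). Of the microfibril proteins that bind Jagged ligands, Mfap5 stood at 6012, 5931 and 6215 normalized counts, a ratio of 0.05, and Mfap2 at 474, 465 and 403, a ratio of -0.23. Egfl7, which can antagonise Notch, was at -0.13 (-0.52 to 0.26).

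Dlk2, a non-canonical ligand that lacks the domain with which Jagged and Delta-like ligands bind, had 162, 135 and 118 normalized counts from soft to stiff. Its stiff to soft ratio was -0.45, with an interval from -0.82 to -0.10, where that of Jag1 was 0.72. Its relative Dlk1 was at 0.18 (-0.22 to 0.59).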
